A study of Mus musculus with 28 samples.

Results

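The genes described are 10 oxygen-dependent histone and DNA demethylases: Kdm2b, Kdm3a, Kdm4b, Kdm4c, Kdm5b, Kdm6a, Kdm6b, Tet1, Tet2 and Tet3. They were chosen by name, as enzymes of one biochemical class, with earlier results of these data known. Other genes of the class were left off and are counted further below. Each of the 10 was found once among the 54429 genes of the count table. Transcripts were measured by sequencing of polyA RNA from O9-1 cells, an established mouse line from the cranial neural crest, the embryonic source of much facial bone and cartilage. There were 28 libraries in 8 groups, from 4 kinds of culture, each kept at 21% O2 (called normoxic, n = 4 libraries) or at 0.5% O2 (called hypoxic, n = 3). All groups are this 1 line, the labels name no genetic change, and they do not say whether replicate libraries came from separate cultures, so p-values measure the spread between these libraries.

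Demethylases with a JmjC domain (the Kdm genes above) and the TET enzymes belong to a family of dioxygenases that use molecular oxygen, iron and alpha-ketoglutarate to hydroxylate a methyl group. On histone lysines the hydroxylated methyl group is lost, and on DNA the TET enzymes turn 5-methylcytosine into oxidised forms that can be replaced by plain cytosine. Some of these genes, Kdm3a and Kdm4b among them, are textbook targets of hypoxia-inducible factors, the transcription factors that accumulate when oxygen is short. In neural crest cells such enzymes act on the marks that hold differentiation genes silent or active.

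Proliferating cells were grown in medium conditioned by STO feeder cells with 15% fetal calf serum, 25 ng/ml bFGF and 5 ng/ml LIF. For chondrocytes, 3 days of osteogenic medium were followed by 7 days as micromasses in chondrogenic medium with 10 ng/ml TGF-beta3, 50 ng/ml BMP-2 and 0.1 µM dexamethasone. Osteoblast cultures were held for 10 days with 100 ng/ml BMP-2, 0.1 µM dexamethasone and 10 mM beta-glycerophosphate, and smooth muscle cultures for 3 days in medium whose only listed additions are 10% serum and antibiotics. The time that proliferating cells spent at 0.5% O2 is not given in the sources used here. Medium, culture form and time differ between the 4 kinds of culture together, so their parts cannot be told apart.

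Library totals, in units of 1000000 counts, ran from 19.9 to 64.7 with a median of 26.8. The 3 hypoxic smooth muscle libraries stood apart from the other 25: mitochondrial ribosomal RNA made up 11.6 to 13.3% of their counts against at most 0.0889% elsewhere, and their scaling factors were 0.505 to 0.533 against at least 0.901 elsewhere. Their labelled cell type was also weakly marked. The summed level of 8 smooth muscle markers was 95.03 to 119 CPM in them against 3595 to 4060 CPM in normoxic smooth muscle libraries. The latter range overlaps the 3658 to 5209.8 CPM of normoxic osteoblast libraries. Hypoxic smooth muscle sums overlapped those of normoxic proliferating libraries (94.4 to 103 CPM) and lay below those of hypoxic proliferating ones (192 to 195 CPM). Between the 2 smooth muscle groups 6 of the 7 tested markers fell at 0.5% O2, beside 40.2% of all genes called lower, with Actg2 at 0 counts in the hypoxic libraries. The chondrocyte markers, 8 genes, summed to 7006 to 14183 CPM in normoxic and 5318 to 5581 CPM in hypoxic chondrocyte libraries, where 6 of 7 tested fell, beside 11.8% of all genes. The 8 osteoblast markers summed to 5721 to 9424 CPM in normoxic and 8778 to 11016 CPM in hypoxic osteoblast libraries, below the 36084 to 50408 CPM of the chondrocyte libraries. Of 9 neural crest markers, Sox10 and Foxd3 had no count in normoxic proliferating libraries, and the list summed to 1065 to 1106 CPM there. That list was higher in normoxic osteoblast (2601 to 3245 CPM) and smooth muscle libraries (2504 to 2599 CPM) and overlapped in normoxic chondrocyte ones (921 to 1155 CPM). Markers of endothelial, blood, epithelial, neuronal or glial, skeletal muscle, adipocyte and pluripotent cells summed to at most 12.04 CPM per list in every group except for 2: the blood list reached 33.6 to 37.4 CPM in hypoxic smooth muscle libraries, carried by Cd68, and the adipocyte list 20.01 to 23.1 CPM in hypoxic osteoblast libraries. Among normoxic osteoblast libraries, replicate 4 lay below the other 3 for all 10 demethylases. The part of these library differences in the results below was not tested. The osteoblast oxygen values are given with and without that replicate, while the hypoxic smooth muscle results rest on the 3 libraries that stand apart and cannot be given without them.

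Sequences at the start sites of 4 of the genes are shown because 3 of them (Kdm3a, Kdm5b and Tet1) rose steeply in proliferating cells and Kdm6a did not pass the test there. RefSeq promoter windows (build GRCm38.p6, 250 bases before to 50 after an annotated start, read on the gene's strand) were found for 8 of the 10 genes (all but Kdm4b and Kdm6b), 14 windows in all. Capitals mark the letters ACGTG or GCGTG, the core letters bound by hypoxia-inducible factors, on either strand (CACGT and CACGC are the same letters on the other strand, and matches can overlap). Kdm3a is on chromosome 6, minus strand, chr6:71632868-71633167. Kdm5b is on chromosome 1, plus strand, chr1:134559928-134560227. Kdm6a is on chromosome X, plus strand, chrX:18162325-18162624. Tet1 is on chromosome 10, minus strand, chr10:62887275-62887574.
Kdm3a: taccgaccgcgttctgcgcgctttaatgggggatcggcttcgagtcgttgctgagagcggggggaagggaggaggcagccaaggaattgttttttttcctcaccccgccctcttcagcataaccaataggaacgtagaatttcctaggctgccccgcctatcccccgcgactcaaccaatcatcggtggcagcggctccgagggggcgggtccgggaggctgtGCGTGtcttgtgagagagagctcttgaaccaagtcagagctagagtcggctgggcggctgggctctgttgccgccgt
Kdm5b: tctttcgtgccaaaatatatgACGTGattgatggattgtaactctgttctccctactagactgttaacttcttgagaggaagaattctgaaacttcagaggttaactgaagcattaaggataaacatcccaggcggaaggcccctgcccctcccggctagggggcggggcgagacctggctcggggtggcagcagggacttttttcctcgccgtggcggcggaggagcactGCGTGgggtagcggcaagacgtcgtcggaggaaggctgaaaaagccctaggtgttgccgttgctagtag
Kdm6a: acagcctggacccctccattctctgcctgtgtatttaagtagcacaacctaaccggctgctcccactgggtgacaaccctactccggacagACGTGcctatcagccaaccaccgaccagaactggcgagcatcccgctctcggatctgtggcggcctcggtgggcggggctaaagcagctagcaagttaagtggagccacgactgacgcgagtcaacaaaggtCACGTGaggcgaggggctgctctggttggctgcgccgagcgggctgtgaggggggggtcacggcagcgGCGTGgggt
Tet1: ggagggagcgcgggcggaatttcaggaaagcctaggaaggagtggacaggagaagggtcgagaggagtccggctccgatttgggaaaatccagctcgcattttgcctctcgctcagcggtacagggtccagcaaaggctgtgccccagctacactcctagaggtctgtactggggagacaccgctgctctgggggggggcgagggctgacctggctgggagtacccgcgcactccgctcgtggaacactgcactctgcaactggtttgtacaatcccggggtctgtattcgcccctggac

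The Kdm3a window held 1 match, 27 bases before the start (the other 2 Kdm3a windows held none), and the Kdm5b window held 2, at 229 and 19 bases before it. Kdm6a, whose transcript did not pass the oxygen test in 3 of the 4 cultures, held 4 matches, and Tet1, the member with the steepest rise in proliferating cells, held none. The Kdm4c gene has one window with 6 matches (chr4:74251629-74251928) and another with none, the Tet2 window (chr3:133544341-133544640) has 1, and the Tet3 window has none. The only Tet1 and Tet3 windows (chr10:62887275-62887574 and chr6:83441629-83441928) lie inside the genes. They do not reach the outer start ends of those minus-strand genes, at 62908996 and 83459084, so those ends were not searched. Kdm2b, which fell in proliferating and osteoblast cultures, has 4 windows, of which 2 overlap and hold 3 matches each and the other 2 hold 1 each. Over the 8 genes, 9 of 14 windows and 6 of 8 genes held a match, and 43.8% of all 32851 windows and 46.7% of all genes with a window held one. A match describes letters only, and a window without one says nothing of the factor.

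All 10 genes passed the low-count filter in every comparison, and the lowest count of any was 48 (Tet1 in a hypoxic smooth muscle library). Levels are given as counts per 1000000 (CPM) scaled by TMM, the trimmed mean of M-values, over all 28 libraries. To set genes beside each other, the level was also divided by the length of all annotated exons of the gene. On that per-kilobase scale, in normoxic proliferating cells Kdm6b stood highest at 7.80 CPM per kb, Kdm2b, Kdm3a, Kdm6a, Kdm4b and Tet3 stood between 4.17 and 5.73, and Tet2 and Tet1 were lowest at 0.559 and 0.258 CPM per kb. In hypoxic proliferating cells the order of levels differed. Kdm6b, Kdm3a and Kdm4b now led with 28.8, 21.2 and 20.9 CPM per kb, while Kdm2b was at 4.24 and the TET transcripts at 1.39 (Tet1), 2.13 (Tet2) and 3.92 CPM per kb (Tet3).

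**Figure D1:**
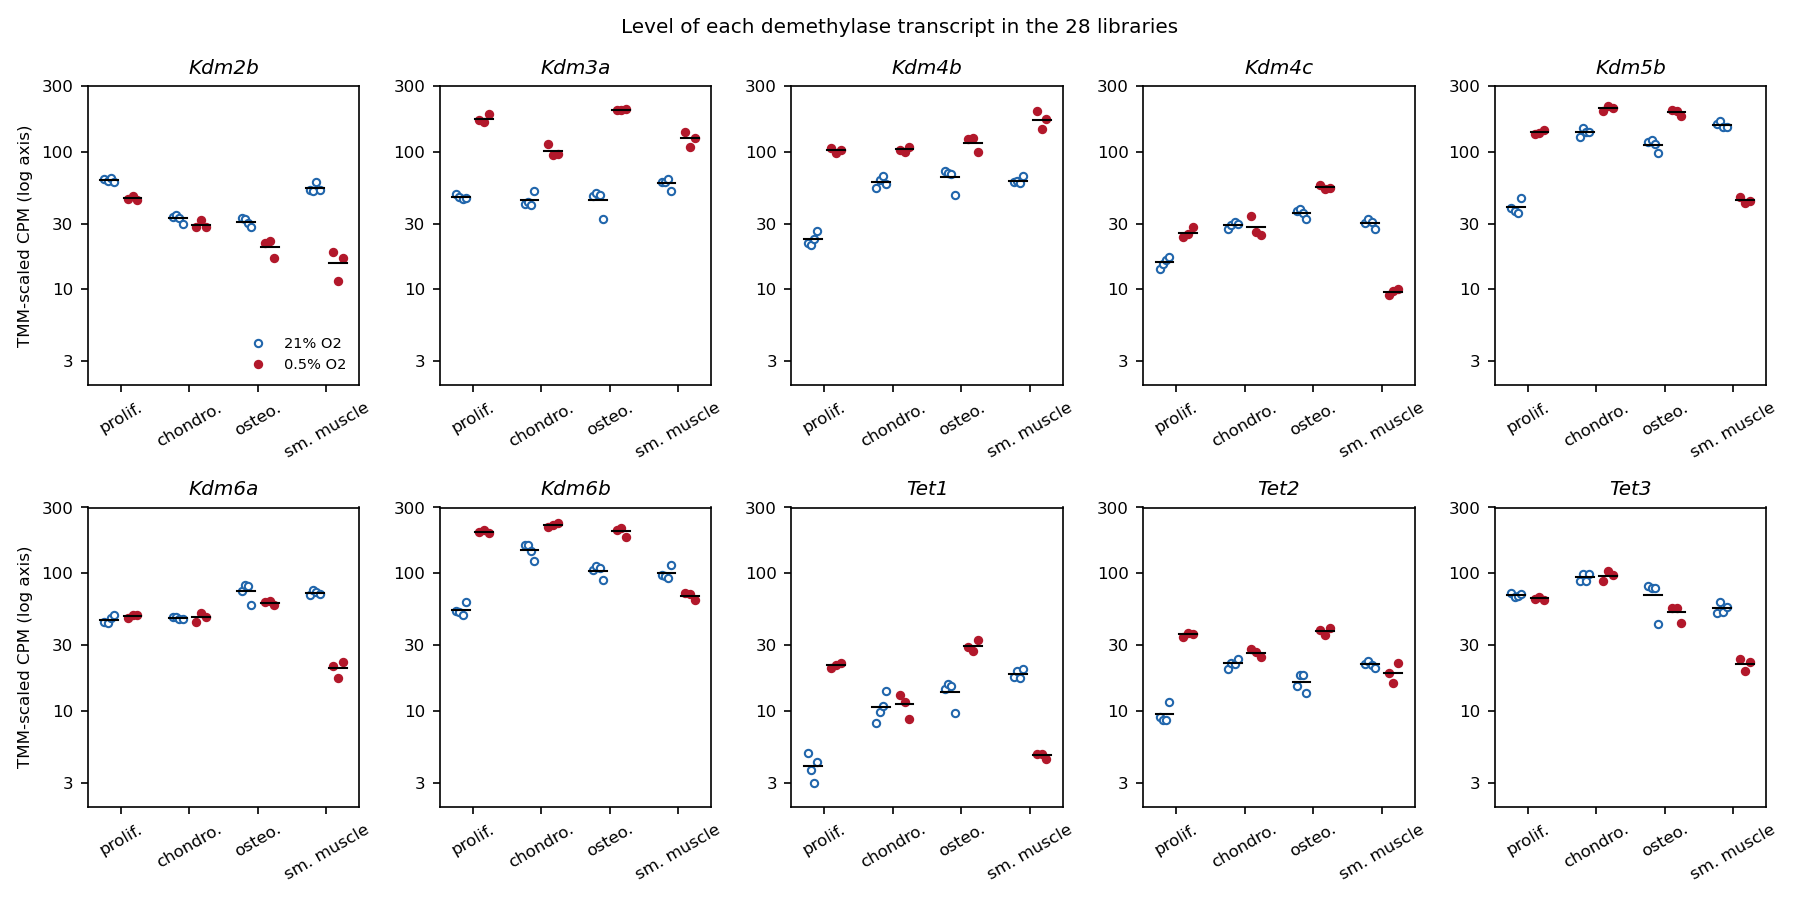
Each panel plots 1 gene, with the 4 kinds of culture on the horizontal axis and TMM-scaled CPM on a logarithmic vertical axis. Points are single libraries (open blue, 21% O2, n = 4; filled red, 0.5% O2, n = 3) and black bars are group means. Kdm3a sits higher at 0.5% O2 in all 4 cultures on this scale, though in smooth muscle cultures its difference turns to -0.22 by library total. The other 8 genes apart from Kdm4b have a lower mean at 0.5% O2 in those cultures.

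The first question the design poses is how each gene's transcript differs between 0.5% and 21% O2 within a culture. In proliferating cells 7 of the 10 demethylases rose at 0.5% O2 (Kdm3a, Kdm4b, Kdm4c, Kdm5b, Kdm6b, Tet1 and Tet2), Kdm2b fell, and Kdm6a and Tet3 did not pass the test. Of all 14156 genes tested, 65.4% passed, 33.1% higher and 32.3% lower. The members' median log2 fold change was 1.91 against 0.015 over all genes tested, for members chosen with earlier results of these data known. Osteoblast cultures had 7 members higher (Kdm3a, Kdm4b, Kdm4c, Kdm5b, Kdm6b, Tet1 and Tet2) and 1 lower (Kdm2b), with 54.3% of genes called (27.0% higher, 27.3% lower) and a members' median of 0.81 against -0.032. Chondrocyte cultures had 4 members higher (Kdm3a, Kdm4b, Kdm5b and Kdm6b) and none lower, with 22.2% of genes called (10.4% higher, 11.8% lower) and medians of 0.15 and -0.0058. Without hypoxic chondrocyte replicate 3, 2091 genes were called in that comparison in place of 3157. Smooth muscle cultures differed in direction: with TMM scaling 2 members rose and 7 fell (0 and 8 by library total), with 75.6% of genes called (35.4% higher, 40.2% lower) and medians of -1.43 and -0.12. Library values at 0.5% and 21% O2 did not overlap for 9, 5, 8 and 9 members in proliferating, chondrocyte, osteoblast and smooth muscle cultures, beside 65.0%, 31.8%, 58.1% and 75.0% of all genes tested. All tests were edgeR's quasi-likelihood test with p-values adjusted by the Benjamini-Hochberg method over all genes, called at an adjusted p under 0.05, and the error of a log2 fold change is an approximate SE.

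**Figure D2:**
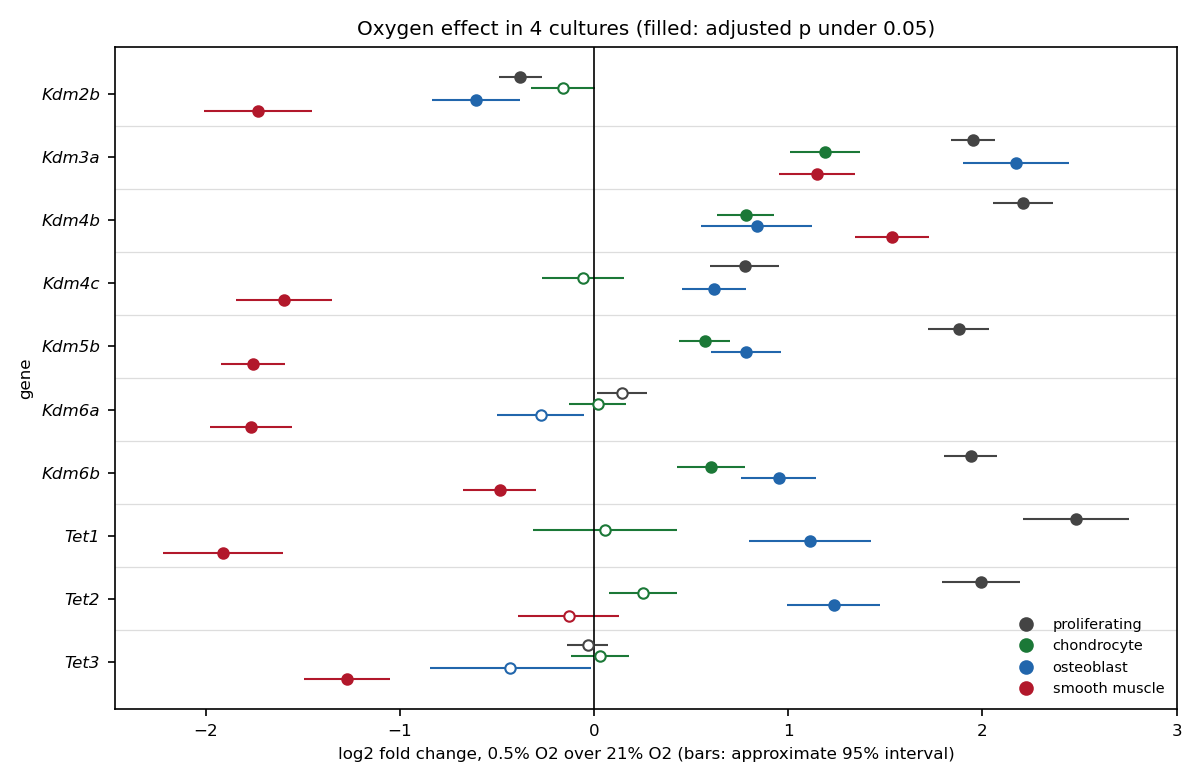
Log2 fold change of each gene (vertical axis) at 0.5% over 21% O2 (horizontal axis, TMM scaling) in the 4 cultures, with approximate 95% intervals and filled points where the adjusted p is under 0.05. Kdm3a and Kdm4b lie to the right of 0 in every culture, though by library total Kdm3a turns to -0.22 in smooth muscle cultures, and the smooth muscle points of Kdm2b, Kdm4c, Kdm5b, Kdm6a, Tet1 and Tet3 lie below -1.

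Kdm3a (chr6:71588972-71632990, minus strand, build GRCm38) encodes an enzyme that removes methyl groups from mono- and dimethylated H3K9, a mark of silent chromatin. In proliferating cells its level was 49.2, 46.9, 45.3 and 46.0 CPM in the 4 normoxic libraries and 169.9, 164 and 189 CPM in the 3 hypoxic ones. The groups do not overlap, and the log2 fold change was 1.95 ± 0.057 (adjusted p = 5.49e-12), which is 3.86-fold. Osteoblast cultures had 47.3, 50.4, 48.8 and 32.5 CPM at 21% O2 and 199.7, 202 and 203 CPM at 0.5% O2, with a log2 fold change of 2.17 ± 0.14 (adjusted p = 3.17e-06). With TMM scaling these hypoxic osteoblast libraries hold the highest Kdm3a levels of the series, while by library total the mean of the hypoxic proliferating ones is higher (201 against 198 CPM). They lie within a narrow band, while normoxic replicate 4 is low. Chondrocyte cultures had 41.9, 43.0, 41.2 and 51.4 CPM at 21% and 114, 95.2 and 95.8 CPM at 0.5% O2, a smaller rise of 1.19 ± 0.093 (adjusted p = 6.70e-06). Of its 8 group means with TMM scaling, the 4 hypoxic ones are the 4 highest, while by library total hypoxic smooth muscle (64.8 CPM) lies below normoxic smooth muscle (75.5 CPM). With TMM the normoxic proliferating, osteoblast and chondrocyte groups overlap one another at the bottom (44.4 to 46.8 CPM).

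Kdm4b (chr17:56326062-56402870, plus strand) acts on trimethylated H3K9 and H3K36. In proliferating cells it stood at 21.9, 20.9, 23.0 and 26.3 CPM in normoxic and 106, 97.1 and 104 CPM in hypoxic libraries. The gap between the groups is wide, and the log2 fold change was 2.21 ± 0.078 (adjusted p = 4.02e-11), or 4.63-fold. Chondrocyte cultures went from 54.3, 61.8, 66.5 and 57.9 CPM at 21% O2 to 103, 99.8 and 108 CPM at 0.5% O2, with a log2 fold change of 0.78 ± 0.074 (adjusted p = 3.33e-05). In osteoblast cultures the normoxic libraries held 72.9, 70.2, 69.4 and 48.2 CPM and the hypoxic ones 123, 126 and 100.2 CPM. The last normoxic value is low and still below every hypoxic one, and the log2 fold change of 0.84 ± 0.14 (adjusted p = 0.00111) was 0.72 to 0.94 when any single library was left out. The normoxic proliferating group, at 23.0 CPM, was the lowest of the 8 and did not overlap the next.

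Its paralogue Kdm4c (chr4:74242497-74405860, plus strand), with the same substrates, had smaller values in proliferating, chondrocyte and osteoblast cultures, a difference between the genes that was not tested. Proliferating cells had 14.1, 15.4, 16.3 and 17.0 CPM at 21% O2 and 24.0, 25.1 and 28.3 CPM at 0.5% O2, a log2 fold change of 0.78 ± 0.09 (adjusted p = 4.04e-06). In osteoblast cultures 37.1, 38.6, 35.7 and 32.6 CPM stood against 57.5, 53.5 and 54.8 CPM, with a log2 fold change of 0.62 ± 0.083 (adjusted p = 2.51e-04). The chondrocyte groups overlapped, at 27.2, 29.1, 31.0 and 30.1 CPM at 21% O2 and 33.9, 26.2 and 25.0 CPM at 0.5% O2, and the difference of -0.056 ± 0.11 (adjusted p = 0.768) had a 95% interval of -0.27 to 0.16. Hypoxic osteoblast libraries thus carried the highest Kdm4c levels of the 8 groups and overlapped no other.

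Kdm5b (chr1:134560171-134635285, plus strand) removes methyl groups from di- and trimethylated H3K4, a mark of active promoters. Its level in proliferating cells was 38.8, 36.8, 35.8 and 45.9 CPM at 21% O2 and 135, 137 and 144 CPM at 0.5% O2. The log2 fold change was 1.88 ± 0.08 (adjusted p = 6.54e-10), and every hypoxic library lay far above the highest normoxic one. Chondrocyte cultures had 127, 149, 139 and 138 CPM at 21% and 197, 214 and 207 CPM at 0.5% O2, and osteoblast cultures 118, 122, 113 and 97.3 CPM at 21% O2 and 201, 197 and 183 CPM at 0.5% O2. In both lineages the groups are apart, by log2 fold changes of 0.57 ± 0.067 (adjusted p = 1.34e-04) and 0.78 ± 0.092 (adjusted p = 1.12e-04). With TMM scaling the hypoxic chondrocyte and osteoblast groups are the highest of the 8 and overlap each other, while by library total the normoxic smooth muscle group is the highest, at 201 CPM.

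Kdm6b (chr11:69398508-69413675, minus strand) and Kdm6a (chrX:18162575-18279936, plus strand) act on di- and trimethylated H3K27, the mark laid down by Polycomb complexes. Kdm6b in proliferating cells stood at 53.4, 52.0, 50.1 and 61.6 CPM at 21% O2 and at 198, 207 and 196 CPM at 0.5% O2. Its log2 fold change was 1.94 ± 0.069 (adjusted p = 5.25e-11), near that of Kdm3a and Kdm5b. Chondrocyte cultures held 159, 160.0, 144 and 123 CPM at 21% O2 and 217, 223 and 231 CPM at 0.5% O2, and osteoblast cultures 105, 113, 109 and 89.0 CPM at 21% O2 and 206, 212 and 184 CPM at 0.5% O2. Both pairs of groups are apart, with log2 fold changes of 0.60 ± 0.089 (adjusted p = 6.65e-04) and 0.95 ± 0.098 (adjusted p = 5.08e-05). The antisense gene Kdm6bos shares 4.11% of the Kdm6b exons and had 861 counts in all libraries together against 107458 for Kdm6b.

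Kdm6a, also known as Utx, behaved differently. Its level was 44.1, 43.4, 47.5 and 49.3 CPM in normoxic and 46.9, 49.9 and 49.8 CPM in hypoxic proliferating cells, which overlap, and the difference of 0.14 ± 0.066 (adjusted p = 0.0708) has a 95% interval of 0.014 to 0.27. The call turns on the setting, since it passed with an adjusted p of 0.0133 without normoxic replicate 4 and of 0.0496 with limma-voom. In chondrocyte cultures the groups overlapped (48.3, 47.8, 46.2 and 46.4 against 44.2, 51.7 and 48.2 CPM) and the difference was 0.018 ± 0.074 (adjusted p = 0.895), with an interval of -0.13 to 0.16. In osteoblast cultures it was 73.6, 82.0, 80.9 and 59.1 CPM against 61.9, 62.9 and 58.5 CPM, a difference of -0.27 ± 0.11 (adjusted p = 0.0684) that became -0.37 (adjusted p = 0.000416) when normoxic replicate 4 was left out. Uty, the Y-linked paralogue of Kdm6a, had no count in any of the 28 libraries, nor did the Y-linked Kdm5d.

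Kdm2b (chr5:122870665-122989823, minus strand) removes methyl groups from H3K36, has a CpG-binding domain and joins a Polycomb complex. It was the member that fell in proliferating and osteoblast cultures. Proliferating cells had 63.2, 61.4, 64.2 and 60.3 CPM at 21% O2 and 45.6, 48.0 and 44.6 CPM at 0.5% O2, a log2 fold change of -0.38 ± 0.056 (adjusted p = 3.75e-05). Osteoblast cultures had 32.8, 32.5, 30.1 and 28.6 CPM at 21% O2 and 21.7, 22.4 and 16.9 CPM at 0.5% O2, a log2 fold change of -0.61 ± 0.11 (adjusted p = 0.00181). The chondrocyte groups overlapped, with 33.6, 34.6, 32.7 and 30.02 CPM at 21% O2 and 28.4, 31.7 and 28.3 CPM at 0.5% O2 and a difference of -0.16 ± 0.085 (adjusted p = 0.214). Exons of Rnf34 on the opposite strand cover 5.77% of the Kdm2b exons. The library kit was stranded, but whether the counting used strand is not given in the sources used here, so some reads of the pair may be shared.

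The TET genes encode the enzymes that oxidise 5-methylcytosine. Tet1 (chr10:62804570-62908996, minus strand) was close to the bottom of the range in normoxic proliferating cells, at 4.98, 3.73, 2.98 and 4.27 CPM, and stood at 20.6, 21.5 and 22.2 CPM in the hypoxic ones. That is the largest rise among the 10 genes in this culture, a log2 fold change of 2.48 ± 0.14 (adjusted p = 3.16e-09) or 5.59-fold. In osteoblast cultures Tet1 went from 14.5, 15.6, 15.1 and 9.64 CPM at 21% O2 to 29.0, 27.4 and 32.6 CPM at 0.5% O2, with a log2 fold change of 1.11 ± 0.16 (adjusted p = 3.78e-04). The chondrocyte groups overlapped at 8.12, 9.82, 10.8 and 14.0 CPM at 21% O2 and 13.1, 11.6 and 8.77 CPM at 0.5% O2, with a difference of 0.057 ± 0.19 (adjusted p = 0.868) and a 95% interval of -0.31 to 0.43. Tet1 had the lowest count of the 10 in normoxic proliferating libraries (90 counts in one of them), and its SE was the largest of the 10 in proliferating and chondrocyte cultures.

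Tet2 (chr3:133463679-133545139, minus strand) had 8.98, 8.63, 8.62 and 11.5 CPM in normoxic and 34.6, 36.8 and 36.4 CPM in hypoxic proliferating cells, a log2 fold change of 1.99 ± 0.10 (adjusted p = 1.56e-09). Osteoblast cultures had 15.1, 18.1, 18.3 and 13.4 CPM at 21% O2 and 38.5, 35.7 and 40.1 CPM at 0.5% O2, a log2 fold change of 1.23 ± 0.12 (adjusted p = 4.07e-05). In chondrocyte cultures all 3 hypoxic libraries (27.9, 26.8 and 24.5 CPM) were above the 4 normoxic ones (20.2, 22.2, 22.0 and 23.9 CPM), but the difference of 0.25 ± 0.091 (adjusted p = 0.0677) did not pass. It passed without normoxic chondrocyte replicate 4, at 0.29 (adjusted p = 0.0381).

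Tet3 (chr6:83362373-83459084, minus strand) did not rise in any culture. Its log2 fold change was -0.032 ± 0.054 (adjusted p = 0.621) in proliferating cells, where levels were 72.2, 67.2, 68.2 and 70.9 CPM at 21% and 65.2, 67.0 and 64.2 CPM at 0.5% O2, and 0.031 ± 0.077 (adjusted p = 0.82) in chondrocyte cultures. In osteoblast cultures it held 80.5, 78.4, 77.9 and 42.7 CPM at 21% O2 and 56.2, 55.5 and 43.7 CPM at 0.5% O2. Normoxic replicate 4 is the single value that makes these groups overlap. With it the difference was -0.43 ± 0.21 (adjusted p = 0.118), and without it -0.61 (adjusted p = 6.42e-05).

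Without normoxic osteoblast replicate 4, the osteoblast log2 fold changes at 0.5% O2 were 2.05 for Kdm3a, 1.15 for Tet2, 0.97 for Tet1, 0.88 for Kdm6b, 0.72 for Kdm4b and for Kdm5b, 0.57 for Kdm4c and -0.65 for Kdm2b. All 8 passed with and without it, and the 7 rises were smaller without it. At 21% O2 the osteoblast values against proliferating cells were then 1.93 for Tet1, 1.60 for Kdm5b and 0.79 for Kdm6a.

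In the smooth muscle cultures the scaling decides how the hypoxic libraries read. Kdm3a stood at 60.3, 60.4, 63.0 and 51.8 CPM in normoxic and 139.9, 108 and 126 CPM in hypoxic libraries, and Kdm4b at 59.9, 61.5, 59.0 and 66.0 CPM at 21% O2 and 196, 145 and 171 CPM at 0.5% O2. With TMM scaling these were rises of 1.15 ± 0.099 (adjusted p = 5.44e-08) and 1.54 ± 0.096 (adjusted p = 1.42e-09). When the libraries were scaled by their total instead, the median log2 fold change of all genes moved from -0.12 to -1.49, and Kdm3a and Kdm4b came to -0.22 (adjusted p = 0.0771) and 0.17 (adjusted p = 0.153), neither of which passed. Relative to the median of all genes, Kdm3a was 1.27 and Kdm4b 1.66 higher. The scaling moves all genes by nearly the same amount, so these distances from the median could hardly differ between the scalings. Scaled by totals without mitochondrial genes and Rn7sk, Kdm3a came to -0.017 (adjusted p = 0.887) and Kdm4b still passed at 0.37. Kdm5b held 158, 167, 151 and 151 CPM in normoxic and 46.6, 42.6 and 44.2 CPM in hypoxic libraries, a log2 fold change of -1.76 ± 0.083 (adjusted p = 5.39e-11) with TMM and -3.12 by total. Kdm5b, which rose in the other 3 cultures, thus fell in this one.

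Tet1 went from 17.5, 19.6, 17.4 and 20.0005 CPM at 21% O2 to 4.87, 4.89 and 4.45 CPM at 0.5% O2 in these cultures, a log2 fold change of -1.91 ± 0.16 (adjusted p = 3.46e-08), the deepest fall of the 10 genes. Kdm6a (-1.77 ± 0.11, adjusted p = 9.76e-10), Kdm2b (-1.73 ± 0.14, adjusted p = 3.25e-08), Kdm4c (-1.60 ± 0.13, adjusted p = 2.04e-08) and Tet3 (-1.27 ± 0.11, adjusted p = 7.79e-08) fell with it. Their library values at the 2 oxygen levels were apart for each gene, for example 69.8, 76.1, 73.0 and 70.2 against 21.0, 17.4 and 22.6 CPM for Kdm6a. Kdm6b fell less, from 97.7, 95.7, 91.9 and 115 CPM at 21% O2 to 71.3, 70.4 and 63.3 CPM at 0.5% O2 (-0.49 ± 0.095, adjusted p = 2.89e-04), and Tet2 overlapped at 21.9, 23.2, 21.5 and 20.3 CPM at 21% O2 and 18.7, 15.9 and 22.3 CPM at 0.5% O2 (-0.13 ± 0.13, adjusted p = 0.379). By library total Tet2 came to -1.50, beside a median of -1.49 over all genes.

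The fall in hypoxic smooth muscle libraries went with transcript length across all genes. Over 14903 genes with a length, Spearman's rho between exon length and log2 fold change was -0.33 in this comparison and 0.036, -0.027 and 0.056 in proliferating, chondrocyte and osteoblast cultures, a description across genes, which are not independent. With the genes in 4 equal bins of length, the median log2 fold change was 0.83 in the shortest bin and -0.65 in the longest. In the 5563 genes within the members' own range of exon lengths (4.90 to 16.9 kb) it was -0.56, below which 6 members lie (-1.27 to -1.91), with Kdm6b at -0.49, Tet2 at -0.13 and Kdm3a and Kdm4b above 0. The part of length, of mitochondrial RNA and of cell state in these values was not tested. In such bulk samples fewer cells of a kind and less RNA per cell cannot be told apart.

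**Figure D3:**
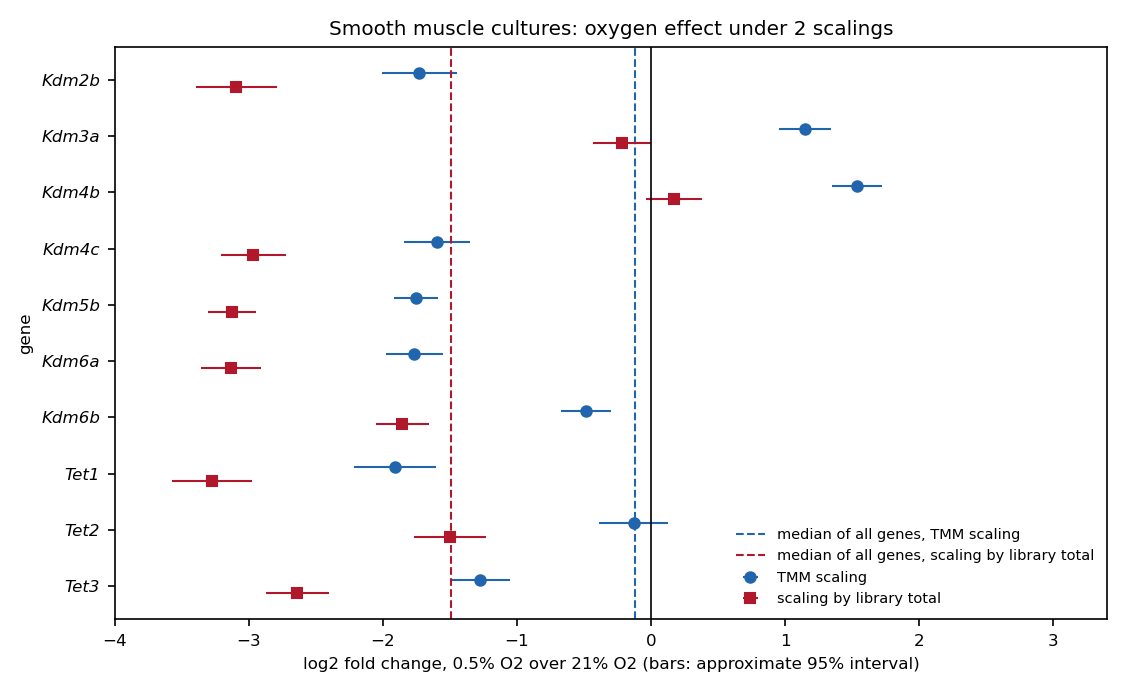
Log2 fold change at 0.5% over 21% O2 in the smooth muscle cultures (horizontal axis) for each gene (vertical axis), with TMM scaling (blue circles) and scaling by library total (red squares), bars giving approximate 95% intervals. Dashed lines mark the median of all genes under each scaling, -0.12 and -1.49, and each red square lies left of its blue circle.

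Whether the oxygen response differed between cultures was tested directly, as the hypoxic log2 change in a lineage minus that in proliferating cells. In chondrocyte cultures the response was lower for 7 members and higher for none, beside 43.5% of all genes called and 21.9% called lower. The difference was -2.41 ± 0.26 (adjusted p = 1.01e-06) for Tet1, -1.73 ± 0.14 (adjusted p = 5.19e-08) for Tet2 and -1.42 ± 0.12 (adjusted p = 4.35e-08) for Kdm4b. Kdm6b (-1.32), Kdm5b (-1.30), Kdm4c (-0.82) and Kdm3a (-0.75) were lower too, and Kdm2b, Kdm6a and Tet3 did not pass. Without replicate 3 in all 4 groups, 4415 genes were called in place of 6654. In these tests of a difference, leaving out a replicate removed every library of that number. Only normoxic groups have a replicate 4, so fits without replicate 1, 2 or 3 kept fewer libraries than those without replicate 4. The hypoxia genes Adm, Ankrd37, Bnip3, Egln3, Ldha, Ndrg1, P4ha1, Pdk1, Pgk1, Slc2a1 and Vegfa, which with Ca9 make up a list of 12 canonical targets, were tested in every culture. At 0.5% O2 10 of these 11 rose in chondrocyte cultures (beside 10.4% of all genes) and 11 of 11 in proliferating, osteoblast and smooth muscle cultures (beside 33.1%, 27.0% and 35.4%), and in chondrocyte cultures the response of 10 was lower than in proliferating cells.

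In osteoblast cultures the response was lower than in proliferating cells for 6 members, beside 54.2% of all genes called and 25.3% lower. These were Kdm4b (-1.33 ± 0.18, adjusted p = 1.26e-05), Tet1 (-1.33 ± 0.23, adjusted p = 1.49e-04), Kdm5b (-1.05 ± 0.13, adjusted p = 4.44e-06), Kdm6b (-0.95 ± 0.12, adjusted p = 9.87e-06), Tet2 (-0.71 ± 0.17, adjusted p = 0.00219) and Kdm6a (-0.37 ± 0.13, adjusted p = 0.026). Kdm3a was the exception among the strong responders, with a difference of 0.27 ± 0.15 (adjusted p = 0.158) and a 95% interval of -0.036 to 0.57. Leaving out replicate 1, 2 or 3 from all 4 groups took Kdm6a out of the called genes (adjusted p up to 0.218). Without replicate 2, Tet2 did not pass either (adjusted p = 0.0772). Leaving out replicate 4, which only the normoxic groups have, brought in Tet3 (-0.55, adjusted p = 0.000107). In smooth muscle cultures the response was lower for all 10, from -0.63 (Kdm4b) to -4.35 (Tet1) with TMM scaling, beside 70.4% of all genes called and 35.5% lower. By library total the median of this difference over all genes moves from -0.042 to -1.37.

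A test of osteoblast against chondrocyte cultures was added after the data had been seen. The oxygen response was higher in osteoblast cultures for Tet1 (1.05 ± 0.27, adjusted p = 0.0069), Kdm3a (0.98 ± 0.18, adjusted p = 6.05e-04), Tet2 (0.97 ± 0.16, adjusted p = 1.79e-04) and Kdm4c (0.66 ± 0.14, adjusted p = 0.0018) and lower for Kdm2b (-0.46 ± 0.14, adjusted p = 0.0189), beside 37.8% of all genes called (5750 genes, and 2985 without replicate 3). For Kdm4b the difference was 0.048 ± 0.18 with an interval of -0.30 to 0.39. Kdm4c and Tet1 did not pass without replicate 3 (adjusted p = 0.0545 and 0.103), and Kdm2b did not pass without replicate 1, 2 or 3. Without replicate 4, whose normoxic osteoblast library is the low one, Kdm6a, Kdm6b and Tet3 passed as well and 8 members were called.

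The second question is what differentiation does to these transcripts, and whether it does the same at both oxygen levels. At 21% O2 most demethylases were higher in each lineage than in proliferating cells: 7 higher and 1 lower in chondrocyte cultures (7 and 3 by library total), 7 and 1 in osteoblast cultures, and 8 and 2 in smooth muscle cultures. Of all genes tested, 74.9%, 78.7% and 79.7% were called in those comparisons, 37.7%, 40.9% and 40.8% higher and 37.2%, 37.8% and 38.9% lower. The members' medians were 1.14, 0.91 and 0.97. These comparisons share the normoxic proliferating libraries. Kdm4b, Kdm4c, Kdm5b, Kdm6b, Tet1 and Tet2 were among the genes that rose in each. Kdm5b, for example, changed by 1.89 ± 0.085 (adjusted p = 1.48e-09), 1.57 ± 0.10 (adjusted p = 3.88e-07) and 2.05 ± 0.077 (adjusted p = 1.35e-12) in chondrocyte, osteoblast and smooth muscle cultures, and Tet1 by 1.49 ± 0.19 (adjusted p = 1.77e-05), 1.83 ± 0.20 (adjusted p = 1.48e-05) and 2.27 ± 0.14 (adjusted p = 3.09e-10).

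Kdm2b fell at 21% O2 in chondrocyte (-0.85 ± 0.062, adjusted p = 1.00e-07) and osteoblast cultures (-0.95 ± 0.061, adjusted p = 3.78e-07), while its fall in smooth muscle cultures (-0.14 ± 0.061, adjusted p = 0.0457) was lost under scaling by library total (-0.059, adjusted p = 0.381), with DESeq2 (adjusted p = 0.0592) and when any of 5 single libraries was left out (adjusted p 0.0664 to 0.133). Kdm3a had values of -0.0032 and -0.014 in chondrocyte and osteoblast cultures, neither called, although by library total the former was -0.35 (adjusted p = 0.00108). In smooth muscle cultures it rose by 0.38 ± 0.066 (adjusted p = 7.09e-05). Kdm6a rose in osteoblast (0.74 ± 0.10, adjusted p = 1.03e-04) and smooth muscle cultures (0.70 ± 0.062, adjusted p = 3.58e-08). Its value in chondrocyte cultures was 0.11 ± 0.065 (adjusted p = 0.148) and turned to -0.24 (adjusted p = 0.00664) by library total. Tet3 rose in chondrocyte cultures (0.50 ± 0.061, adjusted p = 1.19e-05) and fell in smooth muscle cultures (-0.27 ± 0.067, adjusted p = 0.00155), and its osteoblast value of 0.057 was 0.19 (adjusted p = 0.00283) without normoxic osteoblast replicate 4.

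At 0.5% O2 fewer members were called higher in each lineage. The differences from the 21% O2 values are the differences in oxygen response tested above. Chondrocyte cultures had 3 members higher and 4 lower, osteoblast cultures 5 and 2, and smooth muscle cultures 1 and 9, with medians of -0.0099, 0.20 and -1.37. These counts turn with the scaling: by library total they were 2 and 7, 3 and 3, and 0 and 10. The shares of all genes called were 69.5%, 71.3% and 70.0%, with 34.9%, 36.2% and 33.8% higher and 34.6%, 35.1% and 36.2% lower. Kdm4b, which rose by 1.46 and 1.55 in normoxic chondrocyte and osteoblast cultures, had values of 0.014 ± 0.06 (adjusted p = 0.846) and 0.19 ± 0.086 (adjusted p = 0.0643) in the hypoxic ones. The latter passed without hypoxic osteoblast replicate 3 (0.29, adjusted p = 0.000266). Its level was 102 ± 4.43 CPM (SD, n = 3) in hypoxic proliferating, 104 ± 4.16 CPM (SD, n = 3) in hypoxic chondrocyte and 116 ± 14.2 CPM (SD, n = 3) in hypoxic osteoblast libraries, 3 groups that overlap.

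Tet1 fell on chondrocyte differentiation at 0.5% O2, with a log2 fold change of -0.95 ± 0.13 (adjusted p = 2.76e-05), where it had risen at 21% O2. Tet2 (-0.45 ± 0.083, adjusted p = 2.81e-04), Kdm3a (-0.78 ± 0.079, adjusted p = 1.36e-06) and Kdm2b (-0.65 ± 0.079, adjusted p = 7.01e-06) fell there too, and Kdm6a did so by library total (-0.36, adjusted p = 0.000888). Kdm5b rose by 0.56 ± 0.06 (adjusted p = 2.12e-06) and 0.48 ± 0.067 (adjusted p = 1.32e-05) in chondrocyte and osteoblast cultures, and Tet3 by 0.54 ± 0.071 (adjusted p = 1.42e-05) in chondrocyte cultures. Kdm6b rose by 0.15 ± 0.058 (adjusted p = 0.0317) in chondrocyte cultures, a call lost without hypoxic proliferating replicate 1 (adjusted p = 0.114) or 3 (0.0907) or hypoxic chondrocyte replicate 3 (0.0897), and had a value of 0.0021 ± 0.071 (adjusted p = 0.981) in osteoblast cultures. By library total Kdm4b (-0.32, adjusted p = 0.000428) and Kdm6b (-0.18, adjusted p = 0.0173) were called lower in chondrocyte cultures and Kdm6b (-0.23, adjusted p = 0.0112) in osteoblast cultures, where Kdm3a stood at -0.020 (adjusted p = 0.805).

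In hypoxic osteoblast cultures Kdm4c rose by 1.10 ± 0.089 (adjusted p = 2.39e-08), Tet1 by 0.46 ± 0.1 (adjusted p = 6.62e-04) and Kdm6a by 0.32 ± 0.076 (adjusted p = 0.00152), the last not passing by library total (0.089). Kdm3a rose by 0.21 ± 0.069 (adjusted p = 0.0133), a call lost without hypoxic proliferating replicate 1 or 2. Kdm2b (-1.18 ± 0.11, adjusted p = 1.06e-07) and Tet3 (-0.34 ± 0.094, adjusted p = 0.00459) fell. In hypoxic smooth muscle cultures, set against hypoxic proliferating cells, 9 members fell, most deeply Tet1 (-2.06 ± 0.16, adjusted p = 3.44e-07), Kdm5b (-1.52 ± 0.083, adjusted p = 2.20e-08) and Tet3 (-1.45 ± 0.10, adjusted p = 2.18e-07). By library total these 3 came to -3.33, -2.80 and -2.73, beside a median of -1.35 over all genes. In this comparison too the log2 fold change went with exon length across all genes (Spearman's rho -0.38), and the median of the genes within the members' range of lengths was -0.48 with TMM scaling. Kdm4b rose by 0.87 ± 0.11 (adjusted p = 1.83e-05) with TMM scaling and was called lower by library total, at -0.41 (adjusted p = 0.00664).

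**Figure D4:**
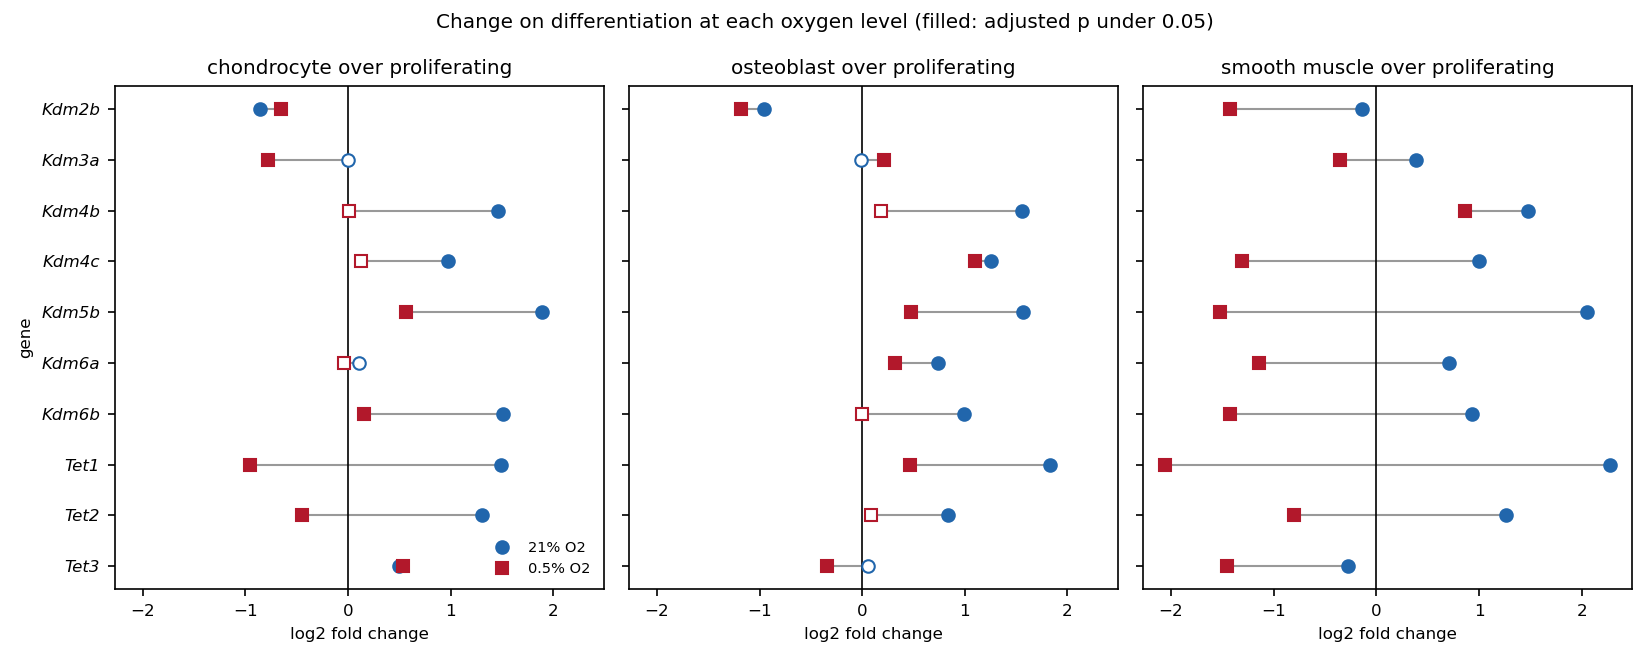
Log2 fold change of each lineage over proliferating cells (horizontal axis) for each gene (vertical axis), at 21% O2 (blue circles) and 0.5% O2 (red squares), filled where the adjusted p is under 0.05. In the chondrocyte panel the Tet1 points lie on opposite sides of 0, at 1.49 and -0.95, and in the smooth muscle panel 9 red points lie left of 0.

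The choice of scaling moved the share of higher genes among all called genes in several comparisons. By library total instead of TMM, that share went from 46.9% to 31.8% for oxygen in chondrocyte, from 49.6% to 36.9% in osteoblast and from 46.8% to 15.6% in smooth muscle cultures. For differentiation it went from 50.3% to 34.7% in normoxic chondrocyte cultures and from 50.2% to 31.8%, 50.8% to 38.2% and 48.3% to 15.0% in hypoxic chondrocyte, osteoblast and smooth muscle cultures, and for the smooth muscle difference in oxygen response from 49.6% to 16.6%. The median of all genes moved from -0.032 to -0.19 for oxygen in osteoblast cultures, from -0.0029 to -0.35 and 0.066 to -0.083 for normoxic chondrocyte and osteoblast differentiation, from -0.021 to -0.35, 0.0010 to -0.23 and -0.073 to -1.35 for the hypoxic lineages, and from 0.0023 to -0.12 and -0.042 to -1.37 for the osteoblast and smooth muscle differences in oxygen response. The calls of the 10 members for oxygen in proliferating cells and the 4 rises in chondrocyte and 7 rises in osteoblast cultures were the same under both scalings, while Kdm6a (-0.43, adjusted p = 0.00906) and Tet3 (-0.58, adjusted p = 0.0401) also passed in osteoblast cultures by library total. The authors' deposited tables give a log2 fold change for each member in the 10 pairwise comparisons, and these 100 values differ from those here by at most 0.056, with 1 of opposite sign (Kdm3a in normoxic chondrocyte differentiation).

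The other genes of the class were counted from a list of 18 JmjC genes that includes the members' paralogues. Of 15 tested in proliferating cells, 11 rose and 4 fell at 0.5% O2, beside 33.1% of all genes higher and 32.3% lower. Kdm3b, Kdm4a, Kdm5a and Kdm5c rose by less than their paralogues among the members Kdm3a, Kdm4b and Kdm5b: Kdm3b by 0.70 (adjusted p = 2.13e-08) beside 1.95 for Kdm3a, Kdm4a by 0.29 (adjusted p = 9.45e-04) beside 2.21 for Kdm4b, and Kdm5a by 0.92 (adjusted p = 1.64e-07) and Kdm5c by 0.42 (adjusted p = 1.32e-06) beside 1.88 for Kdm5b. Kdm2a rose by 0.69 (adjusted p = 1.67e-08) where its paralogue Kdm2b fell. These differences between paralogues were not tested, and the members were chosen with earlier results of these data known. Jmjd1c, of the Kdm3 group, rose by 0.52 (adjusted p = 6.93e-06). The largest rise on the list was that of Hr (3.22, adjusted p = 1.63e-09), the hairless gene, and the largest fall that of Kdm8 (-1.80, adjusted p = 6.98e-05).

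In chondrocyte cultures 4 of 15 tested rose and 1 fell, beside 10.4% and 11.8% of all genes, with Jmjd6 highest (0.86, adjusted p = 0.00102) and Kdm7a lowest (-0.29, adjusted p = 0.03). Kdm2a (0.33, adjusted p = 0.00789) and Kdm5a (0.39, adjusted p = 0.00387) rose, and Kdm3b, Jmjd1c, Kdm4a and Kdm5c had values of 0.13, -0.15, 0.062 and 0.18 that did not pass. In osteoblast cultures 7 rose and 2 fell, beside 27.0% and 27.3%, with Jmjd6 again highest (2.57, adjusted p = 3.11e-07) and Riox1 lowest (-0.64, adjusted p = 0.00959). Among paralogues Kdm2a (0.91, adjusted p = 1.33e-04), Kdm5c (0.70, adjusted p = 9.73e-05), Kdm3b (0.55, adjusted p = 0.00734), Kdm5a (0.50, adjusted p = 0.00176) and Kdm4a (0.28, adjusted p = 0.0118) rose. In smooth muscle cultures 2 of 16 rose and 10 fell with TMM scaling, beside 35.4% and 40.2%. These shares of all genes also stand beside the counts of the lists that follow. By library total the median gene of that comparison moves from -0.12 to -1.49, so that rises smaller than this shift, here and in the lists below, would not read as rises on that scale. Jmjd6, a JmjC hydroxylase, rose by 4.34 (adjusted p = 6.24e-15) and Kdm3b by 0.40 (adjusted p = 0.0015), while Kdm4a (-1.74, adjusted p = 3.87e-09), Kdm5a (-1.37, adjusted p = 1.50e-08), Jmjd1c (-1.12, adjusted p = 5.20e-08) and Kdm2a (-0.95, adjusted p = 3.02e-07) fell and Kdm5c (-0.071, adjusted p = 0.48) did not pass. Kdm4d, counted among the 10, had 64 counts in the 4 normoxic and 0 in the 3 hypoxic libraries. The flavin-dependent demethylases Kdm1a and Kdm1b use oxygen through another cofactor and did not pass in proliferating or chondrocyte cultures. Kdm1a rose by 0.49 (adjusted p = 4.78e-04) in osteoblast cultures and Kdm1b fell by 0.42 (adjusted p = 0.0111) in smooth muscle cultures.

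**Figure D5:**
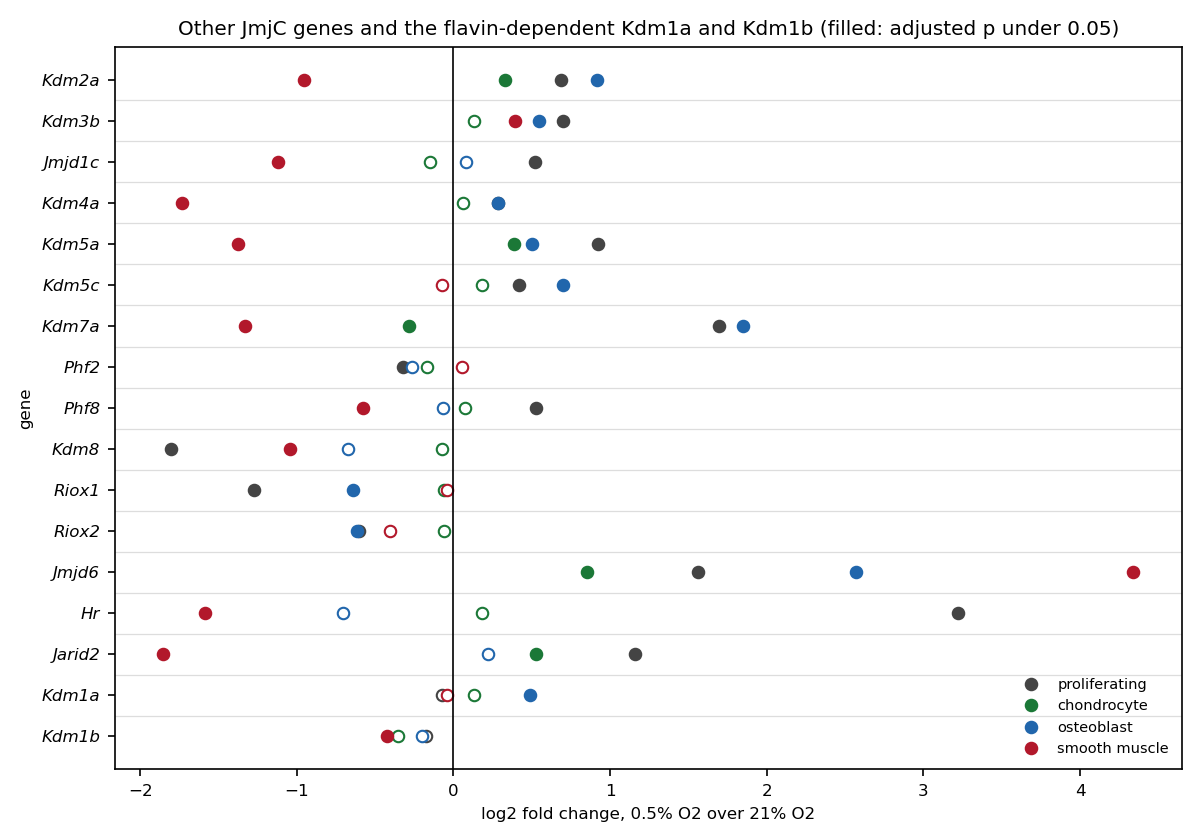
Log2 fold change at 0.5% over 21% O2 (horizontal axis) of the other JmjC genes tested and of Kdm1a and Kdm1b (vertical axis) in the 4 cultures, with TMM scaling and filled points where the adjusted p is under 0.05; Kdm4d is left out for its low counts. Jmjd6 lies right of 0 in every culture, from 0.86 in chondrocyte to 4.34 in smooth muscle cultures.

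Genes that write the marks these enzymes remove moved in both directions. Of 7 H3K9 methyltransferases 1 rose and 4 fell in proliferating cells (Prdm2 highest with 0.29, adjusted p = 0.00112, Setdb2 lowest with -1.43 (adjusted p = 5.37e-08)), 0 and 2 in chondrocyte (Suv39h2 -0.87, adjusted p = 0.00922), 2 and 1 in osteoblast (Ehmt2 0.44, adjusted p = 0.00246, Prdm2 -0.30 (adjusted p = 0.0328)) and 3 and 4 in smooth muscle cultures (Ehmt2 1.49, adjusted p = 3.23e-10, Setdb1 -1.27 (adjusted p = 2.06e-08)). The 4 core Polycomb genes, whose H3K27 mark Kdm6a and Kdm6b remove, split in proliferating cells, where Ezh1 rose (1.02, adjusted p = 2.06e-06) and Ezh2 (-0.65, adjusted p = 8.72e-07), Eed and Suz12 fell. None was called in chondrocyte cultures. In osteoblast cultures 3 rose, led by Ezh2 (1.55, adjusted p = 5.11e-06), and in smooth muscle cultures 3 rose, led by Eed (1.48, adjusted p = 7.41e-09), and Suz12 fell (-0.38, adjusted p = 0.0175).

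Of 6 H3K4 methyltransferases 2 rose and 3 fell in proliferating cells (Kmt2c 0.54, adjusted p = 2.11e-05, Setd1b -0.73 (adjusted p = 1.86e-06)), none was called in chondrocyte cultures, 1 rose and 1 fell in osteoblast cultures (Kmt2d 0.53, adjusted p = 0.00512, Setd1b -0.74 (adjusted p = 0.00569)), and 1 rose and 3 fell in smooth muscle cultures (Setd1a 0.32, adjusted p = 0.0291, Setd1b -1.86 (adjusted p = 5.14e-10)). Of 5 H3K36 methyltransferases 1 rose and 2 fell in proliferating cells (Ash1l 0.27, adjusted p = 0.00942, Nsd2 -0.82 (adjusted p = 7.01e-06)), Nsd2 alone fell in chondrocyte cultures (-0.32, adjusted p = 0.0457), 4 rose in osteoblast cultures (Ash1l highest, 0.59, adjusted p = 0.0076), and 2 rose and 3 fell in smooth muscle cultures (Nsd3 0.67, adjusted p = 1.68e-05, Ash1l -1.19 (adjusted p = 3.79e-08)). On the DNA side, opposite the TET enzymes, the de novo methyltransferase Dnmt3b fell in all 4 cultures, by 1.90, 1.27, 2.20 and 2.60 on the log2 scale (adjusted p = 7.17e-05, 0.0132, 0.000767 and 0.00227), from low levels of at most 2.59 CPM in any library. Of the 4 DNA methylation genes 1 rose and 3 fell in proliferating cells, where Dnmt3a was the one that rose (0.29, adjusted p = 0.00271), 2 fell in chondrocyte cultures, 1 rose and 1 fell in osteoblast cultures (Dnmt1 0.38, adjusted p = 0.0492), and 1 rose and 2 fell in smooth muscle cultures (Uhrf1 0.83, adjusted p = 1.01e-06).

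Of the 3 genes that remove or repair oxidised and deaminated cytosine, Tdg, the glycosylase that excises the last TET products, fell in proliferating cells (-1.13, adjusted p = 4.25e-09) while Tet1 and Tet2 rose. Mbd4 rose in osteoblast cultures (0.53, adjusted p = 0.0405), none was called in chondrocyte cultures, and Smug1 (-0.88, adjusted p = 2.14e-04) and Tdg (-0.87, adjusted p = 2.32e-05) fell in smooth muscle cultures. Of 13 genes that make or consume alpha-ketoglutarate or its competitors, 3 rose and 7 fell in proliferating cells. D2hgdh rose most (0.74, adjusted p = 1.06e-04) and Idh3a, a subunit of the mitochondrial isocitrate dehydrogenase, fell most (-1.12, adjusted p = 9.88e-10). Chondrocyte cultures had 1 rise (Sdhc, 0.21, adjusted p = 0.0362) and 1 fall (Fh1, -0.27, adjusted p = 0.0213), osteoblast cultures 1 rise (Sdhd, 0.42, adjusted p = 0.00319) and 5 falls, and smooth muscle cultures 4 rises (Idh3b highest, 2.39, adjusted p = 1.07e-12) and 6 falls (Idh1 lowest, -3.17, adjusted p = 2.48e-13).

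No gene of the table has the symbol Ca9, and that gene was not counted under any other symbol. The other 11 hypoxia response genes of the list of 12 had summed levels of 2081 to 2223 CPM in normoxic and 12224 to 13169 CPM in hypoxic proliferating libraries. The largest rises were those of Adm in proliferating cells (5.10, adjusted p = 5.25e-14), Ankrd37 in chondrocyte (2.37, adjusted p = 2.57e-05) and osteoblast cultures (4.87, adjusted p = 4.22e-08) and Pgk1 in smooth muscle cultures (7.47, adjusted p = 9.84e-17). Normoxic chondrocyte libraries already summed to 2869 to 4099 CPM, above the normoxic osteoblast (1221 to 1424 CPM) and smooth muscle libraries (737 to 774 CPM), and 9 of the 11 tested genes were higher in them than in normoxic proliferating cells, beside 37.7% of all genes. The part of these raised normoxic levels in the members' smaller response in chondrocyte cultures was not tested.

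Genes whose levels ran most like each member were found by Pearson's r of log2(CPM + 1) over the 25 libraries other than the hypoxic smooth muscle ones, a description, since these libraries share their groups. For Kdm3a they were Bmt2 (r = 0.967) and Npepps (r = 0.964), for Kdm4b Jmy (r = 0.955) and Pfkp (r = 0.947), and for Kdm6b Pfkp (r = 0.974) and Mboat2 (r = 0.949). Pfkp, a phosphofructokinase of glycolysis, is on the lists of both Kdm4b and Kdm6b, which were also the most alike of the member pairs (r = 0.937). For Kdm5b they were Ankrd44 (r = 0.964) and Tctn3 (r = 0.935), for Kdm4c Mtmr3 (r = 0.965) and Dscr3 (r = 0.963), for Kdm6a Slc25a23 (r = 0.962) and Ppt1 (r = 0.957) and for Kdm2b Gjc1 (r = 0.966) and Tead2 (r = 0.961). Among the TET genes they were Wdr19 (r = 0.947) and Nicn1 (r = 0.946) for Tet1, Arhgef28 (r = 0.932) and Abhd18 (r = 0.927) for Tet2 and Zfc3h1 (r = 0.886) and Pdzd8 (r = 0.873) for Tet3. Kdm2b ran against the others most, with r = -0.806 to Kdm4c.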

How the data were processed

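Gene counts of 28 polyA RNA libraries were used as deposited. Per the submitters' processing notes the authors used HISAT2 2.0.5, StringTie 1.3.3b, featureCounts 1.5.0-p3 and the genome build mm10; the annotation and the strand setting of the counting are not given in the sources used here. The authors' deposited tables also hold log2 fold changes for 10 comparisons, used only for a side-by-side check, and 70 per-sample columns were not used. Library totals ran from 19.87 to 64.69 in units of 1000000 counts, and counting error grows as a gene's count falls.

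Samples were grouped by their labels. Each pair of groups was fitted across all genes with edgeR 4.0.16 (R 4.3.3, limma 3.58.1, statmod 1.5.0): filterByExpr (minimum count 10, minimum total 15), TMM scaling, robust quasi-likelihood test, p-values adjusted by Benjamini-Hochberg over all genes tested and called under 0.05. The approximate SE is the log2 fold change divided by the square root of F. Differences in oxygen response were tested as interaction terms over 4 groups; the one between osteoblast and chondrocyte cultures was added after the data had been seen. Shown levels are TMM-scaled CPM over all 28 libraries, divided by exon-union length (GENCODE M21, GRCm38) where genes are compared.

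Alternatives were scaling by library total, the same without mitochondrial genes and Rn7sk, DESeq2 1.42.0, limma-voom, no low-count filter, at least 10 counts in every library, all 8 groups in one fit, a replicate block, and leaving out each replicate. A replicate left out was a single library in comparisons of a pair of groups. For differences in oxygen response it was every library of that number. Some of the fits were also run on simulated counts, whose outcome is not reported here. The 10 members are all named. From each other gene list its counts are given, with the called genes of largest rise and fall and the members' paralogues, and for each member the 2 genes most like it over 25 libraries. A few genes beyond that rule, such as Eed and Suz12 in proliferating cells, are named to spell out a count and were chosen after their values were seen. The members and the gene lists were chosen with earlier results of these data known.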

Additional observations from a re-analysis of the deposited data

Results flagged for a closer look

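Among 40 groups of 4 normoxic libraries, 1 library lay apart from the other 3 by Dixon's test in 4, and chance gives about 1 in 20. The libraries were normoxic smooth muscle replicate 3 for Kdm2b (60.2 CPM, the highest), normoxic proliferating replicate 4 for Tet2 (11.5 CPM, the highest), and normoxic osteoblast replicate 4 for both Kdm4b (48.2 CPM, the lowest) and Tet3 (42.7 CPM, the lowest). That osteoblast library was the lowest of its group for all 10 genes.

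The oxygen response differed from that of proliferating cells for 7 members in chondrocyte cultures, beside 43.5% of all genes, by a test of the difference (log2, lineage minus proliferating, edgeR): Tet1 -2.41, Tet2 -1.73, Kdm4b -1.42, Kdm6b -1.32, Kdm5b -1.30, Kdm4c -0.82 and Kdm3a -0.75. In osteoblast cultures, with 54.2% of all genes called, the values were -1.33 for Kdm4b, -1.33 for Tet1, -1.05 for Kdm5b, -0.95 for Kdm6b, -0.71 for Tet2 and -0.37 for Kdm6a. In smooth muscle cultures, with 70.4% called, they were -4.35 for Tet1, -3.59 for Kdm5b, -2.38 for Kdm6b, -2.33 for Kdm4c, -2.08 for Tet2, -1.87 for Kdm6a, -1.31 for Kdm2b, -1.20 for Tet3, -0.76 for Kdm3a and -0.63 for Kdm4b. The hypoxic smooth muscle libraries behind these last values carried 11.6 to 13.3% mitochondrial ribosomal RNA, whose part was not tested. Between osteoblast and chondrocyte cultures, with 37.8% called, the response differed by 1.05 for Tet1, 0.98 for Kdm3a, 0.97 for Tet2, 0.66 for Kdm4c and -0.46 for Kdm2b.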

How the results depend on the processing

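Of 1980 log2 fold changes of the 10 members under the alternatives, 1484 kept their sign and passed in both, 374 kept it and passed in neither, 34 came to pass the threshold and 31 no longer passed. A further 43 passed neither in the test reported nor under the alternative and differed in sign, 23 of them with a library or replicate number left out and 16 with a scaling by total. The other 14 turned sign and passed in at least one of the pair. All of these 14 came with scaling by library total, as deposited or without mitochondrial genes and Rn7sk. The values on these scales were -0.22 and -0.017 for Kdm3a with oxygen in smooth muscle cultures, and -0.24 and -0.24 for Kdm6a in normoxic chondrocyte differentiation. In hypoxic chondrocyte differentiation they were -0.32 and -0.32 for Kdm4b and -0.18 and -0.18 for Kdm6b. In hypoxic osteoblast differentiation they were -0.020 and -0.022 for Kdm3a and -0.23 and -0.23 for Kdm6b. In hypoxic smooth muscle cultures set against hypoxic proliferating cells they were -0.41 and -0.20 for Kdm4b. The cause was not tested. Leaving out each replicate in turn, between 2091 and 3359 genes were called for oxygen in chondrocyte cultures (2091 without hypoxic replicate 3), 4415 and 7095 for the chondrocyte difference in oxygen response (4415 without replicate 3), and 2985 and 6703 for the osteoblast against chondrocyte difference (2985 without replicate 3 and 3158 without replicate 2), where 2 (without replicate 3) to 8 (without replicate 4) members were called. For the differences in oxygen response each such fit left out every library of that number, so these counts also rest on fewer libraries. No group has more than 4 libraries, which limits the precision of each.

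Replicate numbers did not pair the libraries: same-numbered residuals correlated from -0.1617 to 0.1107, and in 0 of 10 comparisons was every pair over 0.1. With the replicate block, 9, 4, 10 and 9 members were called for oxygen in proliferating, chondrocyte, osteoblast and smooth muscle cultures, beside 70.9%, 19.7%, 63.8% and 69.1% of all genes. Only normoxic groups have a replicate 4, so in these fits its block term takes up that library, much like leaving it out. In osteoblast cultures Tet3 was -0.612 with the block and -0.608 without normoxic replicate 4, and Kdm6a -0.364 and -0.369.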
